A study of Mus musculus with 12 samples.

Results

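The control line of a constitutive Gli2 experiment (group NTC) was compared with the control line of a Gli2 knockout experiment (group Cas9-NTC) by RNA-seq. The samples were 6 of the 12 libraries of a study of mouse melanoma cells, 3 libraries in each of the 2 control groups. Genes were compared where at least 3 of the 6 libraries reached 1 FPKM (fragments scaled for transcript length and library size), which left 11224 of 54532 genes. The choice used detection in these libraries and not the direction or size of any difference. All the cells carry the label BRAFV600E, the cell type melanoma and 1 shared cell-line name, and the NTC genotype is a non-targeted control. Puromycin at 1 ug/mL was present in both groups, in DMEM with 10% FBS. Medium of the Cas9-NTC cells also held blasticidin at 10 ug/mL, and these cells, by their name, carry Cas9 with a non-targeted control. Whether both groups came from the same parental line, clone or tumour is not given in the sources used here. The line, Cas9, blasticidin and any difference in handling therefore cannot be told apart in any result here. Nothing in the labels marks the 3 libraries of a group as separate cultures, so each p-value rests on a spread among libraries that may be technical. The other 6 libraries, from cells with an active Gli2 mutation (Gli2CA) and cells edited at Gli2 with Cas9 (Cas9-Gli2KO), were used only to ask whether differences recurred in libraries not shared with the main comparison.

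Melanoma cells arise from melanocytes, which descend from the neural crest, and melanoma lines can sit in states that resemble pigmented melanocytes, neural crest or Schwann cell precursors, or mesenchymal cells. Sox10, a transcription factor of the neural crest lineage, maintains the melanocytic and glial programmes, and its loss accompanies mesenchymal states with high receptor tyrosine kinase and matrix gene expression. Interferon-stimulated genes form a separate antiviral and antigen-presentation programme, which cells can also keep active without added interferon.

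The FPKM table was deposited without read counts, but low values fell on whole multiples of 1 read in each library. By these steps NTC libraries held about 22832600, 16992200 and 16066200 reads and Cas9-NTC libraries about 16946100, 25360000 and 25983200. At least 1 FPKM was reached by 10573 to 10631 genes in NTC and by 10710 to 10785 genes in Cas9-NTC. Across genes, log2(FPKM + 1) correlated at r = 0.987 to 0.996 between libraries of the same group and at r = 0.820 to 0.828 between the groups. In a principal component analysis of all 12 libraries, component 1 held 77.0% of the variance and placed NTC and Gli2CA at -57.2 to -54.0 and both Cas9 groups at 49.7 to 66.0.

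The 2 control groups were compared across all tested genes. In limma on log2(FPKM + 1), with Benjamini-Hochberg adjustment over all tested genes and an adjusted p under 0.05, 7321 of 11224 genes (65.2%) were called. Of these, 3586 were higher in Cas9-NTC (31.9% of tested genes) and 3735 were lower (33.3%). A difference of at least 1 on the log2 scale, about 2-fold, was called for 966 genes higher (8.61%) and 1038 genes lower (9.25%). The fit of all 12 libraries called 5607 of the 11224 genes, and with no filter on low values 8311 of 23511 were called. The values of the groups did not overlap at all in 7934 tested genes, or 70.7%. The median difference over all tested genes was 0.01, so the calls were spread to both sides of a centre near 0. When recovered reads were tested with limma-voom, which centred all genes at a median of 0.12, 58.2% of called genes were higher in place of 49.0%. Fold changes below are ratios of mean FPKM, log2 differences were taken after adding 1 to each FPKM, so that they are too small for low genes, and each mean is given with its SD over 3 libraries. Reads of overlapping genes cannot be told apart where the use of strand is not known: other genes overlapped 57.2% of the exonic length of Fosl1, 46.5% of that of Twist2 and 18.7% to 26.8% of that of Ctsl, Dhh, Klk8, Rpl30, Ccnd1, Mest, Glipr1, Dusp5, Gas1, H2-Q4, Spp1 and Tcim, and their values are uncertain to that extent.

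**Figure D1:**
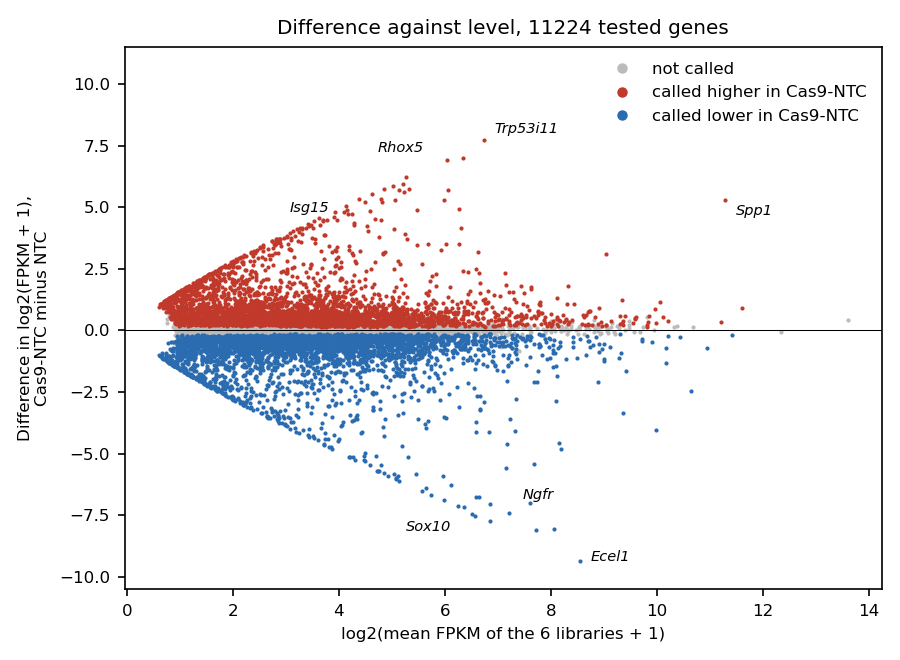
Difference between Cas9-NTC and NTC in log2(FPKM + 1) on the vertical axis against log2 of the mean FPKM of the 6 libraries plus 1 on the horizontal axis, 1 point per tested gene, coloured by the limma call at an adjusted p under 0.05. The 3586 genes called higher and the 3735 called lower lie on both sides of 0 at all levels, with Ecel1 at -9.36 and Trp53i11 at 7.72 as the extremes.

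Braf did not pass the test between the control groups. Braf, the mutated kinase of the labels, was at 1.28, 0.998 and 1.42 FPKM in NTC and at 1.5, 1.53 and 1.41 in Cas9-NTC, and the difference of 0.16 was not called (limma adjusted p = 0.157). The tumour suppressor transcripts Cdkn2a and Cdkn2b were listed at 0 in all 6 libraries, and Trp53 was at 33.5 ± 1.30 FPKM in NTC and 36.2 ± 1.21 in Cas9-NTC (limma adjusted p = 0.118).

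The Gli genes, the transcription factors of Hedgehog signalling that the wider study altered, were low in both control groups. Gli2 was at 0 in all NTC libraries and at 0.249, 0.350 and 0.235 FPKM in Cas9-NTC, at least 10.2-fold higher against a limit of 3 reads in the shallowest NTC library. Gli1, a direct Gli target, was at 0.228, 0.177 and 0.162 FPKM in NTC and at 0.0473, 0.0947 and 0.0693 in Cas9-NTC. Gli1 and Gli2 were below the filter, the groups did not overlap in either, and they lay in opposite order. Gli3, which also acts as a repressor, was at 1.71 ± 0.0697 FPKM in NTC and 2.27 ± 0.217 in Cas9-NTC, a difference of 0.26 (limma adjusted p = 0.0166) whose call was lost under some settings. An exact 2-sided permutation test over samples gave p = 0.1 for Gli1, Gli2 and Gli3, the smallest value that 3 libraries against 3 allow, and p = 0.2 for Braf. In the other 6 libraries the mean of mouse Gli2 was 0.0159 FPKM in those labelled Gli2CA and 1.28 in those labelled Cas9-Gli2KO, while Gli1 was at 1.19 and 0.101. The Gli2 transcript was thus not lower under the knockout label than in Gli2CA or in Cas9-NTC. An edited gene can still be transcribed, and whether Gli2 was edited was not tested.

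Genes of the Y chromosome were higher in Cas9-NTC. Ddx3y, a Y-linked RNA helicase, was at 5.56, 5.58 and 6.18 FPKM in NTC and at 33.4, 30.5 and 30.0 in Cas9-NTC, 5.42-fold higher with a log2 difference of 2.25 ± 0.07 (SE; limma adjusted p = 4.55e-08). The translation factor gene Eif2s3y was 6.89-fold higher, and the histone demethylase genes Kdm5d and Uty were 5.09-fold and 4.79-fold higher. All 7 tested genes of the Y chromosome were called higher, and the groups did not overlap in any of these 4 genes. In the other 6 libraries Ddx3y was at 22.8 FPKM in Gli2CA and 23.4 in Cas9-Gli2KO, so its lowest level of the 4 groups was in NTC. Uty was not called there. The median log2 difference of the 7 tested Y genes was nevertheless 0.72 in Cas9-Gli2KO against Gli2CA. Of the 8 tested genes of the sex chromosome list, X and Y together, 5 were called the same way there and none the opposite way. Usp9y, Zfy1 and Zfy2, further Y-linked genes, were at 0 in all 6 libraries, and Xist, the RNA of the inactive X, was at 0.0163 FPKM in NTC and 0.0142 in Cas9-NTC. The X-linked partners were lower in Cas9-NTC by small amounts, from 1.12-fold for Eif2s3x to 1.54-fold for Kdm5c, which fell from 14.2 ± 1.47 to 9.22 ± 0.152 FPKM. Of these 4 partners, only 2 stayed called lower when the libraries were rescaled to a common total or tested as recovered reads with voom.

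Neither group showed the pigment genes of a differentiated melanocyte. Tyrp1, Dct and Mlana, an enzyme pair of melanin synthesis and a melanosome antigen, were at 0 in all 6 libraries, and Pmel, a structural melanosome protein, averaged 0.434 FPKM in NTC and 0.199 in Cas9-NTC. Of the 7 melanocyte markers, 1 per group reached 1 FPKM in all 3 libraries, Sox10 in NTC and Mitf in Cas9-NTC, and the markers summed to 178 to 198 FPKM in NTC and 2.78 to 3.03 in Cas9-NTC. Summed levels of the longer gene lists of other cell types were higher in Cas9-NTC. Sums of their shorter sets of defining markers were higher for endothelial cells and fibroblasts but not for leukocytes and keratinocytes. The 12 leukocyte genes summed to 1.98 to 3 FPKM in NTC and 10.1 to 10.4 in Cas9-NTC, most of it Cd68, a lysosomal protein gene of macrophages that rose from 1.45 ± 0.427 to 9.28 ± 0.208 FPKM (log2 difference 2.08). Their 7 defining markers, Ptprc among them, summed to 0.383 to 1.11 FPKM in NTC and 0.211 to 0.459 in Cas9-NTC, and none reached 1 FPKM in all libraries of a group. The 9 keratinocyte genes summed to 3.05 to 4.08 FPKM in NTC and 5.09 to 5.97 in Cas9-NTC, with the keratin gene Krt18 rising from 0.192 ± 0.131 to 2.81 ± 0.210 FPKM. The 5 defining keratinocyte markers, without Krt18, summed to 1.93 to 2.59 FPKM in NTC and 1.53 to 2.07 in Cas9-NTC. The 7 endothelial genes summed to 0.0757 to 0.126 FPKM in NTC and 2.57 to 3.13 in Cas9-NTC, nearly all of it Cdh5, an endothelial cadherin gene at 0.0223 and 2.81 FPKM on average. The 8 fibroblast genes summed to 5.58 to 7.26 FPKM in NTC and 15.9 to 16.1 in Cas9-NTC. Of the 4 tested 3 were higher (75%, beside 31.9% of all tested genes) and Col1a1 was lower (25% beside 33.3%). Among the higher ones, Pdgfrb and the protease gene Fap (0 and 5.99 FPKM) passed the filter through Cas9-NTC alone. Only 1 of the 4 had a mean of at least 1 FPKM in both groups, and it was higher. Whether these transcripts came from the melanoma cells was not tested, and in bulk RNA fewer cells of a type and less RNA per cell cannot be told apart.

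Sox10 was close to absent in Cas9-NTC. It stood at 197, 177 and 192 FPKM in NTC and at 0.058, 0.0258 and 0 in Cas9-NTC, where 5 reads were left in all 3 libraries together. The mean was 6743-fold lower in Cas9-NTC (log2 difference -7.53 ± 0.06 SE; limma adjusted p = 2.4e-10). Mitf, the master regulator of melanocytes, moved the other way, from 0.997, 1.15 and 0.954 FPKM to 2.67, 2.71 and 2.63, a 2.58-fold difference between groups that did not overlap (log2 difference 0.85; limma adjusted p = 1.67e-05). Gpnmb, a lysosomal and melanosomal glycoprotein, rose with it, from 10.7 ± 0.637 to 110 ± 0.899 FPKM. Rab38, which carries enzymes to melanosomes, fell from 5.22 ± 0.569 to 0.532 ± 0.135 FPKM, 9.81-fold. These 4 were the only tested genes of an 18-gene melanocyte differentiation list, of which 14 were below the filter and 6 at 0 throughout.

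Genes of the neural crest and Schwann cell lineage were mostly lower in Cas9-NTC. Of 20 neural crest and dedifferentiation genes, 19 were tested, of which 14 were lower and 4 higher. Among the 15 with a mean of at least 1 FPKM in both groups, which did not pass the filter through 1 group alone, 11 were lower and 3 higher, beside 32.2% lower and 29.3% higher among all 9784 such genes. Ngfr, the low-affinity neurotrophin receptor, was at 315, 269 and 302 FPKM in NTC and at 0.736, 0.732 and 0.782 in Cas9-NTC, 394-fold lower (log2 difference -7.40; limma adjusted p = 2.98e-10). Erbb3, the neuregulin receptor of glial precursors, was at 65.9, 64.8 and 70.2 FPKM in NTC and at 0.0785, 0.229 and 0.115 in Cas9-NTC, 475-fold lower (log2 difference -5.90; limma adjusted p = 7.17e-10). In both receptors no Cas9-NTC library came near the NTC range. The crest factor gene Foxd3 fell from 54.4 ± 8.43 to 1.83 ± 0.167 FPKM, 29.7-fold, and Nes, an intermediate filament gene of progenitors, fell 6.68-fold from 169 ± 33.1 to 25.2 ± 1.49. Sox2 was high in both groups, at 64.6 ± 12.8 and 68.3 ± 4.19 FPKM, and its groups overlapped (limma adjusted p = 0.552). Higher in Cas9-NTC were the PDGF receptor gene Pdgfrb, at 0.0518 ± 0.0468 and 7.42 ± 0.243 FPKM, the matrix crosslinking enzyme gene Loxl2, 3.6-fold, and Sox9, 2.90-fold. Fosl1, an AP-1 subunit linked to dedifferentiated melanoma, rose 3.56-fold from 24.6 ± 3.04 to 87.7 ± 5.45 FPKM. Sox2, Sox9 and Nes were named after their values were seen.

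**Figure D2:**
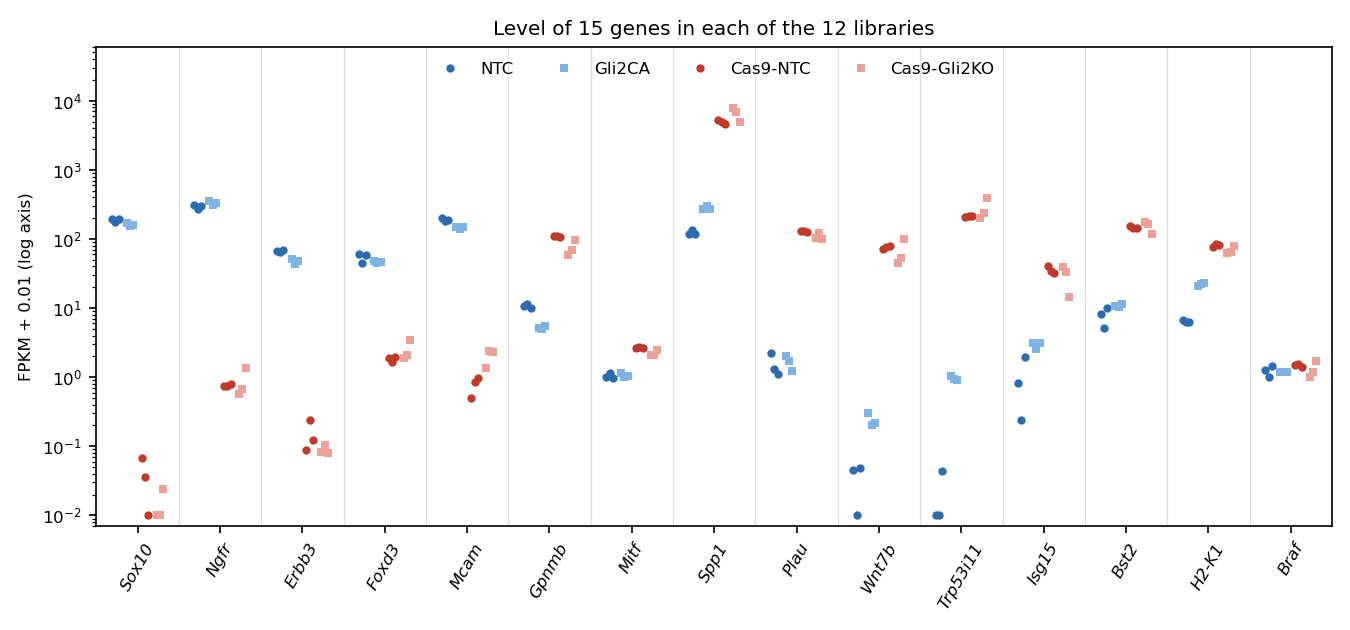
FPKM plus an offset of 0.01 on a log axis for 15 genes in all 12 libraries, 1 point per library and 1 colour per group. Sox10, Ngfr and Erbb3 are high in NTC and Gli2CA and at or near 0 in both Cas9 groups. The genes higher in Cas9-NTC lie above their NTC level, and some, such as Spp1, Gpnmb and Bst2, are well above 0 in NTC too.

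The 15 genes that fell furthest formed a group of neuronal, retinoid and secreted genes that were abundant in NTC and close to 0 in Cas9-NTC. Ecel1, a neuronal membrane metallopeptidase, led with 794, 638 and 823 FPKM in NTC and 0.270, 0.0789 and 0.0770 in Cas9-NTC (log2 difference -9.36; limma adjusted p = 5.74e-10). Apod, a lipid carrier of Schwann cells, fell 187-fold from 388 ± 16.4 to 2.07 ± 0.314 FPKM. Tppp3, a tubulin polymerisation protein, fell 748-fold from 422 ± 23.1 FPKM. Genes of retinoic acid handling were among them: Aldh1a3, which makes retinoic acid, fell 303-fold from 230 ± 3.99 to 0.758 ± 0.121 FPKM, and Crabp2, which carries it to its receptors, from 162 ± 33.7 to 0.119 ± 0.0795. Serpina3n, a secreted protease inhibitor, fell 530-fold from 532 ± 28.4 to 1.00 ± 0.0763 FPKM. Mcam, the melanoma cell adhesion molecule, fell 247-fold from 190 ± 11.1 to 0.769 ± 0.246 FPKM, and the basement membrane collagen gene Col15a1 from 180 ± 17.5 to 0.0256 ± 0.0202. The phosphatase gene Alppl2 and the neighbouring kallikrein genes Klk8 and Klk9 also fell, from 228, 105 and 151 FPKM to 0.0636, 0.0422 and 0.0752. Kallikreins are a family of related genes, and whether reads were split among them was not tested. Sox10 and Ngfr were also in this set, and each of the genes named from it was called lower in Cas9-Gli2KO against Gli2CA as well.

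The 15 genes that rose furthest were led by several that were almost undetected in NTC. Trp53i11, a p53-inducible membrane protein gene, was at 0, 0 and 0.0337 FPKM in NTC, 2 reads in all, and at 206, 215 and 215 in Cas9-NTC (log2 difference 7.72; limma adjusted p = 2.09e-10). Rhox5, an X-linked homeobox gene of the reproductive tract and placenta, was at 0, 0.234 and 0 FPKM, 3 reads in all, and at 130, 127 and 130. Wnt7b, a secreted Wnt ligand, was at 0.0358, 0 and 0.0381 FPKM in NTC and at 71.3, 76.5 and 78.7 in Cas9-NTC (log2 difference 6.22; limma adjusted p = 4.66e-10). In each of these the NTC libraries were at or next to 0 and the Cas9-NTC libraries lay close together. Spp1, the secreted matrix protein osteopontin, was already abundant in NTC at 119, 133 and 117 FPKM and rose 39.8-fold to 5254, 4886 and 4550 (log2 difference 5.30; limma adjusted p = 1.64e-09). Dmp1, which lies in the same gene cluster of acidic matrix proteins on chromosome 5, rose 417-fold from 0.172 ± 0.0459 to 71.8 ± 4.71 FPKM. Plau, the urokinase that activates plasminogen, was at 2.26, 1.32 and 1.10 FPKM and rose 83.0-fold to 133, 131 and 125. Mt1, a metal-binding metallothionein, rose 564-fold from 0.285 ± 0.0954 to 161 ± 3.38 FPKM. Further secreted or surface proteins in this set were the serine protease gene Htra1 (211-fold), the scavenger collectin gene Colec12 (161-fold), the galectin-binding protein gene Lgals3bp (144-fold), the tetraspanin gene Tspan8 (753-fold) and the neuronal glycoprotein gene Olfm1 (93.7-fold). Apol9b, an apolipoprotein L gene with a near-identical neighbour, Glipr1, and Tcim completed the 15, at 55.5, 63.0 and 39.9 FPKM in Cas9-NTC and at 0.0616, 0.108 and 0.00809 in NTC. All 15 were also called higher in Cas9-Gli2KO against Gli2CA, with smaller differences there for Mt1 (3.04 in place of 6.98), Htra1 (2.11 in place of 5.71) and Lgals3bp (2.03 in place of 5.62).

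Interferon-stimulated genes were higher in Cas9-NTC without exception among those tested. Of 44 listed genes, 42 were matched to the table, 37 were tested and 37 were called higher, 28 of them at least 2-fold, with a median log2 difference of 1.71. All 19 with a mean of at least 1 FPKM in both groups were higher, with a median of 1.46, beside 29.3% of all such genes. Mx1, Mx2, Ifitm1, Parp14 and Zbp1 were below the filter. The summed level of the list was 312.7 to 347.8 FPKM in NTC and 1689 to 1843 in Cas9-NTC. The promoters of 4 of these genes are shown because they carry copies of the interferon-stimulated response element core, to which interferon-activated transcription factors bind. The sequences are from RefSeq on GRCm38.p6 and run 5′ to 3′ on the gene's strand from 250 bases before to 50 bases after its start, with matches to GAAANNGAAA, or to its reverse complement, in capitals. Isg15 (chr4:156200769-156201068, minus strand) holds 3 overlapping matches that begin 78, 72 and 66 bases before the start, Bst2 (chr8:71537423-71537722, minus strand) 2 at 130 and 124 bases, Ifit1 (chr19:34640639-34640938, plus strand) 2 on the opposite strand at 104 and 85 bases, and Oas1a (chr5:120907476-120907775, minus strand) 2 at 20 and 14 bases.
Isg15: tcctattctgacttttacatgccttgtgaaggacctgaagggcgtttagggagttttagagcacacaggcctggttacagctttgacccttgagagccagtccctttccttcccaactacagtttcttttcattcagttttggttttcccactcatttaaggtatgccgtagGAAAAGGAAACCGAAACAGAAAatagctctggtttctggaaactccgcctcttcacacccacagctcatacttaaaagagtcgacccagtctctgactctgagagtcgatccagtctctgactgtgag
Bst2: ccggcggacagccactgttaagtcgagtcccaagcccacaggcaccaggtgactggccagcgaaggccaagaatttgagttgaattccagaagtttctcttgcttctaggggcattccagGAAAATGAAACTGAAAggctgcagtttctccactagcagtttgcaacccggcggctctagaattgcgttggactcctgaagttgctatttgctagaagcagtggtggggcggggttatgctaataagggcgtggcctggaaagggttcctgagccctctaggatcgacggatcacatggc
Ifit1: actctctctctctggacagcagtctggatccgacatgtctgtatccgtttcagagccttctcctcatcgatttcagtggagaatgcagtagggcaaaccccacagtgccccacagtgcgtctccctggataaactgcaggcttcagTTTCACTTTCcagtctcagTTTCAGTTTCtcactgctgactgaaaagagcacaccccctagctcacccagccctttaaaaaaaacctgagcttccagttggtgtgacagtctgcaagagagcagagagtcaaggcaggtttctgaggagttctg
Oas1a: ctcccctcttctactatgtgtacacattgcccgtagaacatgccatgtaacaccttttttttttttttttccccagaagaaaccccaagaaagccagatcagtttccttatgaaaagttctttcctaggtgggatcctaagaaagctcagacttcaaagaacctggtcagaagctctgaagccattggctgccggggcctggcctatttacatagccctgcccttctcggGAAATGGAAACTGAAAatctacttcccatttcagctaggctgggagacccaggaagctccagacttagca

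The same letters, searched on both strands with overlapping matches counted, occur in 1131 of 32851 promoters (3.44%) and in 3.62% of the 8536 tested genes with a promoter in the table. They occur in 19 of the 30 tested interferon-stimulated genes with a promoter (63.3%). A match is a description of the letters and not a measured binding site.

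The ubiquitin-like modifier Isg15 was at 0.811, 0.234 and 1.98 FPKM in NTC and at 40.3, 34.6 and 32.7 in Cas9-NTC, 35.6-fold higher (log2 difference 4.29 ± 0.28 SE; limma adjusted p = 3.81e-06). Bst2, the virus tether tetherin, was at 8.15, 5.15 and 9.86 FPKM and at 156, 145 and 146, 19.3-fold higher (log2 difference 4.14; limma adjusted p = 4e-07). The NTC libraries varied among themselves in both genes, yet none approached the Cas9-NTC range. Tmem173, the cytosolic DNA sensor adaptor STING, was steady within groups at 2.63, 2.56 and 2.68 FPKM and at 52.0, 49.0 and 48.0, 19-fold higher. Genes named after their values were seen followed the same order. Ifit1, which binds viral RNA, was at 0.0505 ± 0.0303 and 12.8 ± 0.970 FPKM, and Oas1a, which makes the activator of RNase L, was at 0 in NTC and at 11.4 ± 1.31 FPKM in Cas9-NTC, at least 115-fold higher. The Oas1 genes are a family of close copies between which reads could be split. The membrane protein gene Ifitm3 was abundant in both groups and rose 8.71-fold from 108 ± 9.14 to 943 ± 40.5 FPKM. Of the transcription factors of this response, Irf7 rose 93.7-fold from 0.0921 ± 0.0208 to 8.63 ± 1.04 FPKM. In Cas9-Gli2KO against Gli2CA, 29 of these genes were called in the same direction and 1 in the opposite one.

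Class I antigen presentation genes were also mostly higher in Cas9-NTC. Of 28 genes, 20 were tested, 16 were higher and 4 lower, and among the 15 at or above 1 FPKM in both groups 11 were higher (73.3%, beside 29.3% of all such genes) and 4 lower (26.7% beside 32.2%), with a median of 0.82. The heavy chain gene H2-K1 was at 6.80, 6.21 and 6.30 FPKM in NTC and at 77.6, 83.4 and 80.8 in Cas9-NTC, 12.5-fold higher (log2 difference 3.46; limma adjusted p = 2.41e-09), with a wide gap between the groups. H2-D1 rose 5.13-fold from 45.5 ± 3.44 to 233 ± 7.45 FPKM, and H2-Q4 from 0.155 ± 0.148 to 9.74 ± 0.737, although H2 genes share long stretches of sequence and reads could be split among them. B2m, the invariant light chain, rose 2.22-fold from 662 ± 30.3 to 1467 ± 41.3 FPKM. Tap1, a subunit of the peptide transporter, and Nlrc5, the class I transactivator, were near 0 in NTC and reached 3.32 ± 0.392 and 2.17 ± 0.174 FPKM in Cas9-NTC. The 4 lower genes act in folding and loading in the endoplasmic reticulum, among them Calr, which fell 1.47-fold from 611 ± 35.8 to 414 ± 0.764 FPKM, and Pdia3, which fell 1.5-fold. Promoters of 5 of 17 tested class I genes in the RefSeq table held the response element letters.

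Chemokines and cytokines moved both ways, with 7 of 15 tested genes higher (46.7%) and 6 lower (40.0%), beside 31.9% and 33.3% of all tested genes. Of the 11 at or above 1 FPKM in both groups, 6 were higher (54.5%) and 3 lower (27.3%). Among all such genes 29.3% were higher and 32.2% lower. Ccl5, which attracts T cells, rose from 0.191 ± 0.195 to 12.7 ± 0.909 FPKM, the membrane-bound chemokine gene Cx3cl1 rose 9.96-fold from 5.01 ± 0.715 to 49.9 ± 0.732, and the monocyte attractant gene Ccl7 rose 2.16-fold. Cxcl1, a neutrophil attractant, fell 25-fold from 13.4 ± 0.717 to 0.535 ± 0.0274 FPKM, and the alarmin gene Il33 fell 6.56-fold from 62.1 ± 7.53 to 9.47 ± 0.185. Of 11 tested checkpoint and suppressive surface genes, 4 were higher and 5 lower, a split that turned to 5 higher and 4 lower under quantile normalisation and under voom. Of the 7 at or above 1 FPKM in both groups, 3 were higher (42.9%) and 2 lower (28.6%). Vsir, which encodes the checkpoint protein VISTA, rose from 0.0246 ± 0.0115 to 6.03 ± 0.139 FPKM, and the costimulatory ligand gene Cd80 rose 2.08-fold. Cd200, whose product restrains myeloid cells, fell 367-fold from 42.5 ± 4.60 to 0.116 ± 0.0233 FPKM, and Nt5e, the ectonucleotidase CD73 that forms adenosine, fell 13.8-fold from 8.78 ± 0.465 to 0.635 ± 0.0871. Cd274, which encodes PD-L1, was below the filter at 0.141 ± 0.0516 and 0.709 ± 0.0972 FPKM.

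The counts of the lists below read against 31.9% higher and 33.3% lower among all tested genes. Mesenchymal transition genes split evenly, 7 higher and 7 lower of 14 tested (50% each). The transcription factor gene Snai1 rose 4.44-fold from 2.36 ± 0.326 to 10.5 ± 0.234 FPKM and Twist1 rose 2.81-fold from 26.4 ± 1.29 to 74.1 ± 4.83. Twist2 fell from 7.58 ± 0.166 to 2.10 ± 0.379 FPKM, while Prrx1 fell 2.24-fold and Zeb2 2.45-fold. The atypical cadherin gene Cdh13 rose from 0.0372 ± 0.0239 to 6.02 ± 0.0975 FPKM. Of 18 collagen and lysyl oxidase genes tested, 6 were higher (33.3%) and 9 lower (50%). The fibrillar collagen gene Col3a1 rose 2.97-fold from 78.2 ± 4.2 to 232 ± 6.53 FPKM, and Col5a2 fell 5.91-fold from 71.6 ± 5.19 to 12.1 ± 1.04. Col6a1, of the pericellular beaded filaments, fell 6.97-fold from 281 ± 27.7 to 40.3 ± 1.91 FPKM. Among 24 matrix glycoprotein and proteoglycan genes, 9 were higher (37.5%) and 14 lower (58.3%). Of the 18 at or above 1 FPKM in both groups, 8 were higher (44.4%) and 9 lower (50%). Among all such genes 29.3% were higher and 32.2% lower. The basement membrane components moved apart: the laminin chain gene Lama5 rose 3.04-fold while the linker gene Nid2 fell 246-fold from 53.5 ± 4.77 to 0.217 ± 0.0605 FPKM. Igfbp7, a secreted binding protein, fell 18.2-fold from 301 ± 20.8 to 16.5 ± 0.434 FPKM.

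Extracellular proteases and their inhibitors were mostly lower, with 17 of 25 tested genes lower and 4 higher, and 12 lower (63.2% beside 32.2% of all such genes) and 3 higher (15.8% beside 29.3%) among 19 at or above 1 FPKM in both groups. Mmp15, a membrane-type metalloprotease, fell 439-fold from 22.2 ± 2.25 to 0.0507 ± 0.0146 FPKM and Adamts1, which cleaves proteoglycans, fell 19-fold from 180 ± 9.75 to 9.50 ± 0.0683. Against the rise of the urokinase gene Plau, its inhibitor gene Serpinb2 fell 31.9-fold from 12.5 ± 2.51 to 0.391 ± 0.0560 FPKM. The lysosomal protease gene Ctsl rose 2.46-fold from 160 ± 7.31 to 394 ± 10.9 FPKM. Of 16 tested integrin subunits, 11 were lower and 5 higher, or 10 lower (83.3%) and 2 higher (16.7%) of 12 at or above 1 FPKM in both groups. Itgb3, a receptor subunit for vitronectin and osteopontin, fell 14.6-fold from 36.1 ± 2.76 to 2.47 ± 0.285 FPKM, the laminin receptor subunit gene Itgb4 fell 47.5-fold from 14.6 ± 0.617 to 0.307 ± 0.0280, and Itga4 fell 6.36-fold. Itgb7, which pairs with alpha-4 in lymphocytes, rose 222-fold from 0.193 ± 0.159 to 42.9 ± 1.01 FPKM, and the leukocyte integrin gene Itgb2 rose from 0.0463 ± 0.0419 to 3.40 ± 0.280. The 12 leukocyte genes summed to more in Cas9-NTC, most of it Cd68, while the sum of the 7 defining leukocyte markers was not higher, as given above. Whether leukocytes had a part in these integrin values was not tested.

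Of 39 Hox genes, which encode body-axis position, 24 were at 0 in all 6 libraries and 3 were tested, all of the Hoxb cluster and all higher in Cas9-NTC. Hoxb4 was at 0 in NTC and at 3.54, 4.2 and 3.93 FPKM in Cas9-NTC, at least 53.4-fold higher, Hoxb6 was at least 18.2-fold higher, and Hoxb9 was at 2 reads in all of NTC and at 3.85, 3.92 and 3.77 FPKM. Each passed the filter through Cas9-NTC alone. Among other patterning factors 8 were higher and 7 lower of 19 tested. Of the 11 at or above 1 FPKM in both groups, 5 were higher (45.5%) and 2 lower (18.2%). Foxf1, a forkhead factor of mesenchyme, rose 24.4-fold from 0.846 ± 0.188 to 20.7 ± 1.29 FPKM and Msx1, a homeobox gene of craniofacial mesenchyme, rose from 0.113 ± 0.0250 to 12 ± 1.07. Tbx2, a T-box repressor active in melanocytes, fell 19.9-fold from 19.2 ± 3.17 to 0.964 ± 0.126 FPKM. Of 13 tested imprinted genes, which are expressed from 1 parental allele, 8 were lower and 2 higher, but of the 7 at or above 1 FPKM in both groups 2 moved each way, 28.6% beside the 29.3% higher and 32.2% lower of all such genes. The adaptor gene Grb10 fell 724-fold from 24.3 ± 0.584 to 0.0336 ± 0.0146 FPKM and Mest from 15 ± 0.923 to 0.198 ± 0.0159, while the retrotransposon-derived Peg10 rose 4.45-fold from 7.24 ± 0.629 to 32.3 ± 2.51. Of 29 germline genes, 4 were tested, of which 3 were higher and 1, Maged2, was lower by at least 2-fold. Among the higher ones, Maged1 rose 1.61-fold from 56.5 ± 1.48 to 90.8 ± 0.455 FPKM beside Rhox5.

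Hedgehog pathway genes moved both ways, 3 higher (33.3%) and 4 lower (44.4%) of 9 tested. The ligand gene Dhh, the Hedgehog of Schwann cells, fell 6.06-fold from 36.1, 32.7 and 39.8 FPKM to 6.29, 5.50 and 6.11, with no overlap (log2 difference -2.41; limma adjusted p = 1.05e-07). Gas1, a co-receptor, rose 106-fold from 0.321 ± 0.0460 to 34.0 ± 1.07 FPKM, and Smo, the signal transducer, rose 1.69-fold from 12.4 ± 0.285 to 21 ± 1.16. Gpr161, a ciliary inhibitor of the pathway, fell 2.98-fold, and the receptor and target gene Ptch1, named after its values were seen, fell 1.27-fold from 2.61 ± 0.114 to 2.05 ± 0.0934 FPKM. Among 24 tested Wnt genes 9 were higher (37.5%) and 12 lower (50%). Of the 11 at or above 1 FPKM in both groups, 2 were higher (18.2%) and 6 lower (54.5%). Among all such genes 29.3% were higher and 32.2% lower. The ligand genes Wnt5a and Wnt5b rose beside Wnt7b, from 0.0209 ± 0.0164 to 2.43 ± 0.101 FPKM and from 0.110 ± 0.0391 to 2.54 ± 0.104. Wnt7a was at 2.60, 2.58 and 2.83 FPKM in NTC and at 0 in Cas9-NTC, at least 47.8-fold lower. The secreted antagonist gene Sfrp1 fell 254-fold from 13.7 ± 0.551 to 0.0539 ± 0.0327 FPKM, the feedback inhibitor gene Nkd2 fell 13-fold from 62.7 ± 1.66 to 4.83 ± 0.210, and the receptor gene Fzd1 fell 8.47-fold.

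Prostaglandin genes were higher in Cas9-NTC, with 7 of 9 tested genes higher and none lower, and 5 higher of 7 at or above 1 FPKM in both groups (71.4%, beside 29.3% of all such genes). Ptgs2, the inducible cyclooxygenase, was at 13.3, 15.2 and 11.7 FPKM in NTC and at 37.2, 40.5 and 37.3 in Cas9-NTC, 2.86-fold higher (log2 difference 1.46; limma adjusted p = 3.12e-06). Ptges, the terminal prostaglandin E synthase, rose from 0.0502 ± 0.0736 to 3.19 ± 0.438 FPKM, and the prostaglandin exporter gene Abcc4 rose 5.63-fold from 1.93 ± 0.419 to 10.9 ± 0.204. Slco2a1, the uptake transporter, rose 30.8-fold from 0.253 ± 0.0677 to 7.80 ± 0.414 FPKM. The directions were not the same in the other libraries: in Cas9-Gli2KO against Gli2CA 1 of these genes was called in the same direction and 4 in the opposite one, and Ptgs2 was at 101 FPKM in Gli2CA and 12.2 in Cas9-Gli2KO.

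Of 19 tested TGF-beta and BMP genes, 6 were higher (31.6%, beside 31.9% of all tested genes) and 9 lower (47.4% beside 33.3%). The secreted BMP antagonist gene Grem1 rose 12.6-fold from 9.46 ± 0.802 to 119 ± 3.14 FPKM, and the BMP target Id1 fell 4.44-fold from 64.3 ± 2.62 to 14.5 ± 0.497. Receptor tyrosine kinase and growth factor genes were higher in 14 (53.8%) and lower in 10 (38.5%) of 26 tested. The receptor gene Fgfr1 rose 14.5-fold from 1.02 ± 0.102 to 14.8 ± 0.823 FPKM while its ligand gene Fgf2 fell 25.2-fold from 7.13 ± 0.545 to 0.282 ± 0.00720. Pdgfrb and its ligand gene Pdgfb were likewise in opposite order, the ligand falling 65.3-fold from 12.2 ± 1.52 to 0.187 ± 0.0558 FPKM. MAPK output and feedback genes, which read the pathway that mutant BRAF drives, were higher in 6 (30.0%) and lower in 12 (60%) of 20 tested. Etv4, an ETS factor downstream of ERK, rose 3.12-fold from 15.6 ± 0.932 to 48.6 ± 1.61 FPKM and the ERK phosphatase gene Dusp5 rose 2.67-fold, whereas the feedback inhibitor gene Spry4 fell 2.59-fold and the cyclin gene Ccnd1 fell 2.23-fold from 431 ± 19.3 to 194 ± 3.46.

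Proliferation genes were higher in Cas9-NTC by modest amounts, 20 of 30 tested (66.7%, beside 31.9% of all tested genes), with 2 lower (6.67% beside 33.3%) and a median of 0.33. Cdt1, which licenses replication origins, rose 2.39-fold from 8.35 ± 0.525 to 19.99 ± 0.572 FPKM, the mitotic kinase gene Plk1 rose 2.11-fold, and the helicase subunit gene Mcm6 rose 1.77-fold. Mki67 did not pass the test, at 11.2 ± 1.25 and 11.9 ± 1.02 FPKM (limma adjusted p = 0.471). Among 16 tested cyclins and inhibitors 3 were higher and 7 lower, with 5 higher under voom. Myc rose 2.10-fold from 8.89 ± 0.490 to 18.6 ± 0.955 FPKM while Mycn fell from 4.30 ± 0.495 to 0.0199 ± 0.0345, and the inhibitor gene Cdkn1a fell 2-fold from 195 ± 8.83 to 97.7 ± 2.55. The p53 targets were balanced, 11 higher and 10 lower of 25, with the death receptor gene Tnfrsf10b rising from 0.0677 ± 0.0191 to 8.83 ± 0.0728 FPKM. Of 79 cytosolic ribosomal protein genes 34 were higher and 2 lower, a count that became 60 higher and 1 lower under voom, and the largest rises, of Rpl30 and Rpl8, were in genes on chromosome 15. Of 12 mitochondrially encoded genes 4 were higher (33.3%, a share near the 31.9% of all tested genes), or 7 under voom, and none lower.

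Integrated stress and unfolded protein response genes were lower in 17 (56.7%) and higher in 6 (20%) of 30 tested, with a median of -0.30. The amino acid response targets Asns and Atf3 fell 2.79-fold and 4.56-fold, the first from 87.0 ± 4 to 31.2 ± 0.598 FPKM, and Ddit4, an inhibitor of mTORC1, rose 2.55-fold. Cholesterol and fatty acid synthesis genes fell together, 19 lower (86.4%) and 2 higher (9.09%) of 22 tested, all 22 of them at or above 1 FPKM in both groups, where 32.2% of all genes were lower and 29.3% higher, with a median of -0.57. Dhcr7, the last enzyme of cholesterol synthesis, was at 41.5, 42.1 and 41.6 FPKM in NTC and at 6.72, 6.49 and 6.36 in Cas9-NTC, 6.4-fold lower (log2 difference -2.51; limma adjusted p = 6.39e-09). Scd1, a fatty acid desaturase, fell 4.37-fold from 331 ± 24.5 to 75.8 ± 1.61 FPKM, and Srebf1, a transcription factor of the pathway, fell 3.36-fold from 73.9 ± 6.26 to 22 ± 1.68. The epoxidase gene Sqle, on chromosome 15, rose 1.70-fold from 22.9 ± 1.22 to 39.0 ± 0.417 FPKM. Cholesterol genes in Cas9-Gli2KO against Gli2CA were called in the same direction in 9 cases and in the opposite one in 3. Hypoxia and glycolysis genes were higher in 18 and lower in 1 of 25 tested, or 16 and 1 of 23 at or above 1 FPKM in both groups (69.6% and 4.35%, beside 29.3% and 32.2% of all such genes), with a median of 0.43. Egln3, an oxygen-sensing hydroxylase, rose 10.7-fold from 4.82 ± 0.344 to 51.6 ± 1.25 FPKM and Car9, a carbonic anhydrase, 11.7-fold from 0.844 ± 0.388 to 9.91 ± 1.45, while Pfkfb4 fell 9.26-fold. In the other libraries 4 hypoxia genes were called in the same direction and 7 in the opposite one. NRF2 targets were mixed, 8 higher and 6 lower of 19 tested, with the aldehyde dehydrogenase gene Aldh3a1 rising 40.8-fold from 1.18 ± 0.361 to 48.2 ± 2.01 FPKM and the malic enzyme gene Me1 falling 2.19-fold.

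**Figure D3:**
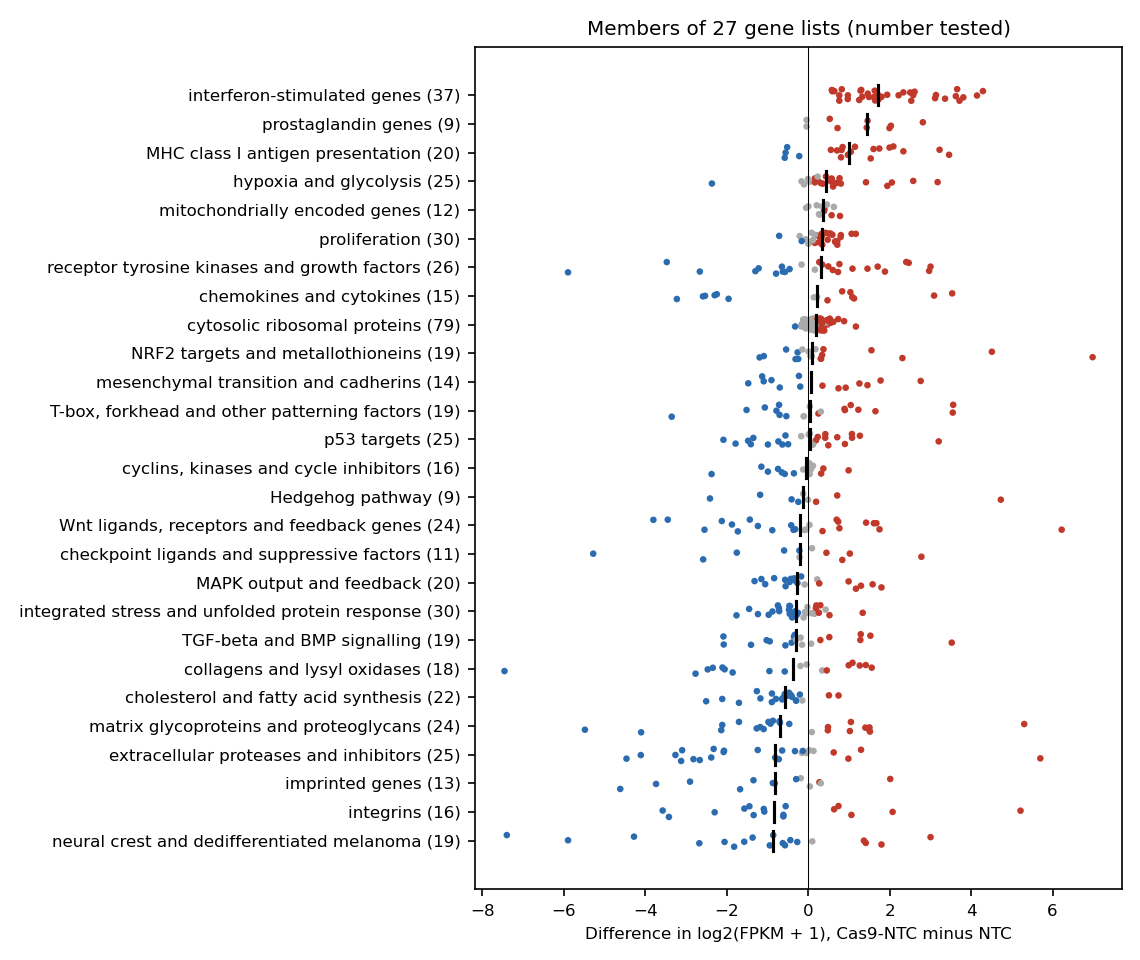
Difference in log2(FPKM + 1), Cas9-NTC minus NTC, of each tested member of 27 gene lists, 1 point per gene, red where limma called it higher, blue lower and grey not called; black bars are list medians and the number tested follows each name. All 37 interferon-stimulated genes lie to the right of 0 and 19 of 22 cholesterol and fatty acid genes are called to the left, while most other lists have members on both sides.

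Differences were not spread evenly along the genome. On chromosome 15, 69.6% of 454 tested genes were called higher and 15.6% lower, with a median log2 difference of 0.58, and no other autosome had a median above 0.14. Chromosome 16 leaned the other way, with 57.6% of 335 genes lower and a median of -0.27, and chromosome 4 and the X chromosome had 46.3% and 47.0% of their genes lower. A running median over 41 neighbouring genes was used to mark blocks of at least 20 genes at or beyond 0.3 on either side, in coordinates of GENCODE M21 on GRCm38. The largest of 12 such blocks held 379 genes at 5.14 to 99.4 Mb of chromosome 15, of which 273 were higher and 56 lower, with a median of 0.62. Wnt7b, Myc, Rpl30, Rpl8, Apol9b and Sqle lie in this block, as do Sox10 and Dhh, which fell. A second block of 32 genes at 102 to 104 Mb of the same chromosome, with Itgb7 and the phosphodiesterase gene Pde1b (9.76-fold), had 22 higher and 2 lower. In Cas9-Gli2KO against Gli2CA the first block also had a median of 0.44, with 180 higher and 52 lower of 368 genes.

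Blocks of lower genes lay on chromosomes 1, 4, 6, 9, 16 and X. The sharpest held 39 genes at 107 to 109 Mb of chromosome 9, of which 30 were lower and 1 higher, with a median of -0.62 here and -0.73 in the other libraries. Sema3b, a secreted semaphorin in that block, fell 25.2-fold from 545 ± 61.0 to 21.6 ± 0.629 FPKM. On chromosome 16, 50 genes at 52.2 to 87.7 Mb had a median of -0.48 with 35 lower and 6 higher, among them Adamts1 and its neighbour Adamts5, which fell from 8.08 ± 0.301 to 0.0435 ± 0.00979 FPKM. On the X chromosome, 66 genes at 109 to 153 Mb had a median of -0.47 with 47 lower and 5 higher, and 30 genes at 160 to 169 Mb a median of -0.53 with 20 lower and 3 higher. Tmsb4x, an actin-binding peptide gene in the second of these, fell 5.58-fold from 2707 ± 249 to 485 ± 39.4 FPKM, and the basement membrane collagen gene Col4a5 in the first rose from 0.0161 ± 0.0204 to 21 ± 0.470. These X blocks did not recur as such in the other libraries, where their medians were -0.11 and 0.08, nor did a pair on chromosome 4 (35 genes at 8.69 to 21.8 Mb and 23 genes at 62.2 to 70.4 Mb), with medians of 0.04 and 0.08 there. The lean of the whole chromosomes did recur. Over all tested genes of chromosome 4 the median was -0.17 here and -0.20 in the other libraries. For the X chromosome it was -0.14 and -0.21. The block on chromosome 1, with the matrix gene Prelp (85.8 ± 7.92 to 0.511 ± 0.145 FPKM), had a median of -0.01 over its own 21 genes and drew its running median from the genes around it. The number of blocks was 17 with a window of 21 genes, 13 after median-ratio scaling and 15 with a pseudocount of 0.1. DNA copy number was not measured in these libraries, and its part in the blocks was not tested.

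**Figure D4:**
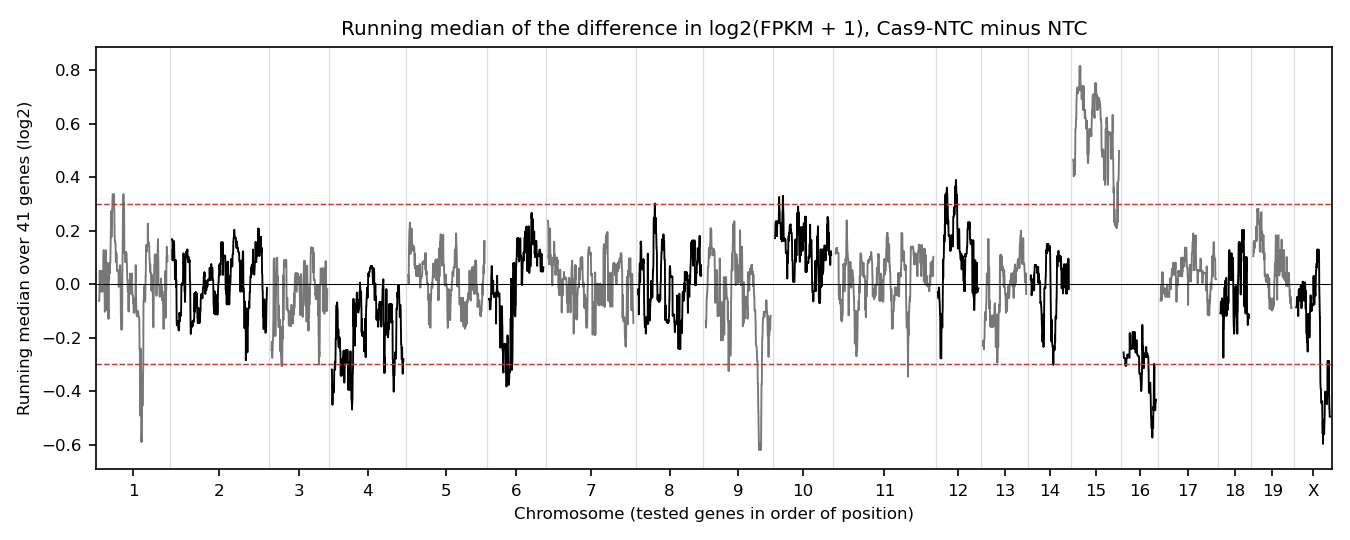
Running median over 41 neighbouring tested genes of the difference in log2(FPKM + 1), Cas9-NTC minus NTC, with genes in order of position along each chromosome on the horizontal axis; the outermost 20 genes at each chromosome end, where the window is cut short, are not drawn. Dashed lines mark 0.3 and -0.3: nearly all of chromosome 15 lies above the upper line, and stretches of chromosomes 9, 16 and X lie below the lower one.

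Of the 7096 called genes that were also tested in libraries not shared with the main comparison, 61.4% were called the same way there. Cas9-Gli2KO was compared with Gli2CA, a contrast that holds the same difference in Cas9 and blasticidin beside the difference in Gli2 labels. There, 6213 of 11338 tested genes (54.8%) were called, 2984 higher (26.3%) and 3229 lower (28.5%). Of 10932 genes tested in both, 1970 were higher in both, which was 54.9% of the genes higher in Cas9-NTC and 66.0% of those higher in Cas9-Gli2KO. Another 2388 were lower in both, 63.9% and 74.0% of the lower genes of each comparison. Opposite calls were given to 181 genes that were higher in Cas9-NTC and lower in Cas9-Gli2KO and to 86 in the reverse order. The share of called genes that were called the same way in the other libraries grew with the size of the difference, from 43.4% of 3083 genes with a log2 difference under 0.5 to 97.7% of 128 genes with a difference of at least 4. Across genes the 2 differences correlated at r = 0.818 (Spearman's rho 0.709), a description over genes that share libraries within each comparison. Sox10 was at 162 FPKM in Gli2CA and at 0.00465 in Cas9-Gli2KO, and Ngfr at 332 and 0.866, so both genes were lower in both contrasts. Of the neural crest list 15 genes were called the same way in both and 1 in opposite ways. Podoplanin, Pdpn, a membrane glycoprotein of mesothelial and lymphatic cells that was named after its values were seen, was the furthest exception: it rose from 1.88 FPKM in NTC to 84.7 in Cas9-NTC and fell from 50.9 in Gli2CA to 0.159 in Cas9-Gli2KO. Cas9-Gli2KO library 3 had a lower summed FPKM (293496) than libraries 1 and 2 (407846 and 370982). Leaving it out was not planned beforehand. Without it the counts called the same way were 2294 higher and 2689 lower, in place of 1970 and 2388.

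**Figure D5:**
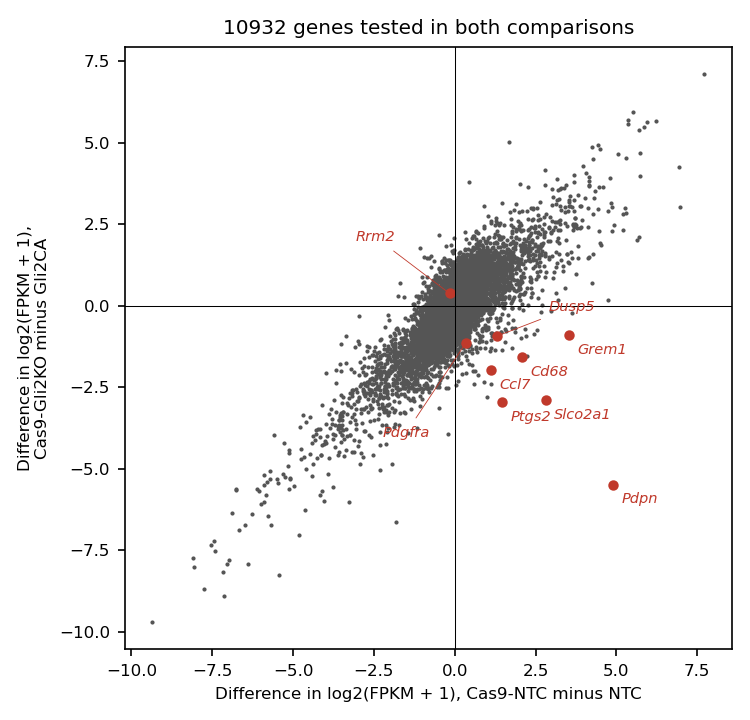
Difference in log2(FPKM + 1) between Cas9-Gli2KO and Gli2CA (vertical axis) against the difference between Cas9-NTC and NTC (horizontal axis), 1 point for each of the 10932 genes tested in both. The points follow the diagonal (r = 0.818), and the 9 genes marked in red are those named by rule or in the text whose differences had opposite signs and were both called.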

How the data were processed

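RNA was taken from 3 libraries per group with a poly-A selected, random-primed kit, per the labels' protocols. The authors deposited 1 table of FPKM per gene and library; which aligner, counter, genome build and strand setting made it is not given in the sources used here. All genes at 1 FPKM or more in at least 3 of the 6 libraries were compared on log2(FPKM + 1) with limma 3.58.1 in R 4.3.3, trended prior, 4 residual degrees of freedom, 2-sided, Benjamini-Hochberg adjustment over 11224 genes, called at an adjusted p under 0.05. The procedure was tested on simulated data. The simulation changed far fewer genes than were called here and drew each library independently, so it does not measure the error rate in these data. Low FPKM values were divided by the worth of 1 read; 97.8% to 98.4% of those of 20 reads or fewer came out whole within 0.02. Reads in genes over the divisor of the FPKM were 1.05 in NTC and 0.973 to 0.979 in Cas9-NTC. Limits at 0 are 3 reads in the shallowest library of the group and cover counting error only. Coordinates are from GENCODE M21 (54495 of 54532 identifiers matched). Members and gene lists were chosen with earlier results of these data known. Genes were named by rule: all genes of the labelled genotype and sex chromosome lists, up to 3 called each way per other list and per block, and the 15 highest and 15 lowest with groups apart; others are marked in the text or are Ptgs2, B2m, Tap1, Nlrc5, Wnt7a, Cd274, Mki67, the pigment genes Tyrp1, Dct, Mlana and Pmel, Ptprc and the interferon genes below the filter. Some genes and label items are not reported here. Alternatives were other pseudocounts, filters, scalings, library weights, voom, all 12 libraries, a replicate block and each library left out. Python 3.11.15 was used for tables and figures.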

Additional observations from a re-analysis of the deposited data

Results flagged for a closer look

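Among the genes named by rule or in the text, 9 were called in opposite directions in the 2 comparisons, Cas9-NTC against NTC and Cas9-Gli2KO against Gli2CA. The difference between the log2 differences was tested as an interaction in limma over all 12 libraries. The genes were picked by their opposite calls in these same libraries. Small interaction p-values therefore follow largely from the choice and give no separate support, and the values below describe the size of each gap. Pdpn differed by 10.4 (4.90 in the controls against -5.48; limma adjusted p = 1.26e-11) and Ptgs2 by 4.4 (1.46 against -2.94; limma adjusted p = 1.65e-08); both were named after their values were seen. Slco2a1 differed by 5.70 (2.81 in the controls against -2.88; limma adjusted p = 5.88e-07). The gap was 4.42 for Grem1 (3.52 against -0.90; limma adjusted p = 2.37e-08) and 3.67 for Cd68 (2.08 against -1.58; limma adjusted p = 2.79e-07). Ccl7 differed by 3.10 (1.13 against -1.98; limma adjusted p = 0.000187) and Dusp5 by 2.23 (1.29 against -0.94; limma adjusted p = 1.44e-06). For Pdgfra, a PDGF receptor gene, it was 1.48 (0.34 against -1.14; limma adjusted p = 9.42e-05). Rrm2, a subunit of ribonucleotide reductase, was the only one of the 9 lower in Cas9-NTC, with -0.54 (-0.16 against 0.38; limma adjusted p = 0.00431), and its call in the controls was lost under some settings.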

How the results depend on the processing

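No alternative turned the direction of a called gene named in the text. The share of called genes that were higher, 49.0%, became 51.1% with no filter, 52.6% after rescaling to a common total, 52.4% after quantile normalisation and 58.2% with voom, and the checkpoint split turned as given above. With a pseudocount of 5, which shrinks the differences of low genes by construction, at least 2-fold differences were called for 393 genes higher and 505 lower in place of 966 and 1038. Leaving out each library in turn gave 3131 to 3817 genes higher, 3335 to 3889 lower, 962 to 987 at least 2-fold higher and 1033 to 1048 at least 2-fold lower, and 1810 to 2085 higher and 2250 to 2472 lower in both comparisons. The labels number the replicates, and deviations of same-numbered libraries correlated at -0.16, -0.07 and 0.10. With 3 libraries per group, these weak values cannot settle whether the numbers pair the samples. With a replicate block 3453 genes were higher and 3569 lower, 970 and 1038 at least 2-fold. The fit of all 12 libraries called 2728 higher and 2879 lower, and voom 4518 and 3239. Of the named genes, Gli3, Ptch1, Ddx3x, Eif2s3x, Kdm6a, Rrm2, Slc7a5, Rpl36a, Rps4x, mt-Co2, mt-Cytb and mt-Nd1 lost their call in at least 1 setting, and Braf (voom) and Trp53 (quantile normalisation and voom) gained one. Calls of genes under a few reads per library are limited by depth.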

Other observations

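Some genes were detected in 1 control group alone, at 1 FPKM or more in all its libraries and 0 in the other group; the genes named here were chosen after their values were seen. In NTC alone there were 57, of which 45 were protein coding. They included Lgi4, a Schwann cell signal for myelination, at 68.3 FPKM (at least 1769-fold lower in Cas9-NTC), Gjc3, a gap junction gene of myelinating glia, at 51.6 FPKM (at least 1270-fold lower), Wfdc18 at 59.1 FPKM and the glial receptor gene Gpr37 at 4.41 FPKM. In Cas9-NTC alone there were 62, of which 39 were protein coding. Among them were Fap, a surface protease of activated fibroblasts, at 5.99 FPKM (at least 182-fold higher), the dermal matrix gene Dpt at 9.91 FPKM, the homeobox gene Prrx2 at 3.79 FPKM, the antiviral genes Oas2 at 3.68 FPKM and Rsad2 at 2.10 FPKM, and Psmb8, an immunoproteasome subunit, at 2.99 FPKM. In the other libraries, 39 of the 57 were at 1 FPKM or more in all Gli2CA libraries with a mean under 0.1 in Cas9-Gli2KO, and 28 of the 62 showed the reverse.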
